A study of Homo sapiens with 6 samples.

Results

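The 37 genes described here encode the enzymes of cholesterol and fatty acid synthesis, the proteins that regulate them and the proteins of sterol efflux, and they were followed in WT and PARP3-/- LN229 glioblastoma cells. They were chosen by name for their place in the pathway and not by their measured values, although earlier results of these data were known. All 37 were found among the 33841 genes of the deposited table. Each of them passed the filter on low counts, as did 17144 genes in all. LN229 is an established human glioblastoma cell line, grown here in medium with 10% fetal bovine serum, which brings cholesterol and fatty acids into the culture. The study sequenced the RNA of parental LN229 cells (WT) and of LN229 cells in which PARP3, an enzyme that attaches ADP-ribose to proteins and DNA ends, had been disrupted by genome editing (PARP3-/-), with 3 biological replicates of each, to learn which genes depend on PARP3. Both groups share the cell line and the serum, and no drug or hypoxia is given in their labels. The labels place the disruption between exon 2 and exon 9, whereas the guides of the methods lie in exons 2 and 5. PARP3-/- LN229 lines were single-cell clones and the sequenced clone is not named, so PARP3 loss and the clone cannot be told apart in any difference given here.

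Cells make cholesterol from acetyl-CoA through mevalonate and isoprenoid units to squalene, which is closed into lanosterol and trimmed to cholesterol, and they build fatty acids from the same acetyl-CoA. The transcription factors SREBP1 and SREBP2 switch on most of these enzymes when membrane sterol is low: SCAP escorts them out of the endoplasmic reticulum and the INSIG proteins hold them back. When sterols are abundant, oxysterols activate the LXR receptors, which raise the cholesterol exporters ABCA1 and ABCG1 and the ubiquitin ligase MYLIP. Glioblastoma cells are known to depend on a supply of cholesterol, which activators of LXR reduce.

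The libraries held 29692065 to 46010369 counts, and replicate 1 was the smallest library of both genotypes, at 35582892 counts in WT and 29692065 in PARP3-/-. The replicate 1 libraries also stood apart from the other 4 in their levels. Their deviations from the genotype means correlated with each other (r = 0.788 across genes). With those of replicates 2 and 3 of the other genotype they correlated negatively (r of -0.77 to -0.45). Deviations cancel out within a genotype, so the negative sign follows in part from the positive correlation. The 37 genes were well covered, with a median mean count of 2721 against 695 over all genes tested. PARP3 itself gave 34.9, 22.4 and 24.3 CPM (reads scaled to a library total of 1000000 after TMM) in WT and 19.1, 22.5 and 19.5 CPM in PARP3-/-, so the genotypes overlapped. By edgeR its log2 fold change was -0.42 without the replicate number as a block (adjusted p = 0.307) and -0.39 with it (adjusted p = 0.0469), and since exons outside the deletion are still counted its level does not check the labels. Of 8 glial and glioma markers, 7 were tested, with VIM, NES and CD44 abundant and GFAP at 1 to 17 counts. By edgeR's quasi-likelihood test the glial marker S100B was lower in PARP3-/- (194 CPM in WT and 93.1 CPM in PARP3-/-, adjusted p = 0.0256) and the glutamate transporter SLC1A3 higher (8.02 and 16.2 CPM, adjusted p = 0.00508), and with the replicate number as a block SOX2 (-0.32, adjusted p = 0.00516), OLIG2 (-0.52, adjusted p = 0.00152) and CD44 (-0.25, adjusted p = 0.00721) were lower too. The list summed to 5294 to 5756 CPM in WT and 5032 to 6017 CPM in PARP3-/-. The 10 markers of epithelium, blood, endothelium and hepatocytes were at or near 0 (0 to 26 counts a library), summing to 0.667 to 1.40 CPM in WT and 0.847 to 1.39 CPM in PARP3-/-. Their part and that of the glial markers in the results was not tested.

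The DNA in front of 5 of the genes is shown as examples of the patterns below. NSDHL was lower in PARP3-/- cells. With the replicate number as a block MSMO1 was lower and LSS higher, and neither was called without it in the fits of all 6 libraries. STARD4 differed most clearly by replicate number, and SREBF2 held the only match to the sterol regulatory element. Each stretch is upstream of the gene in the deposited table and is taken from the RefSeq promoter table (GRCh38.p14), read 5′ to 3′ on the gene's strand. The regions are chrX:152830813-152830966 on the plus strand for NSDHL, chr4:165327419-165327622 on the plus strand for MSMO1, chr21:46228825-46229024 on the minus strand for LSS, chr5:111512591-111512785 on the minus strand for STARD4 and chr22:41832855-41833078 on the plus strand for SREBF2. Capitals mark the CCAAT box bound by NF-Y, in either orientation (CCAAT or ATTGG), and in SREBF2 also the sterol regulatory element TCACNCCAC.
NSDHL: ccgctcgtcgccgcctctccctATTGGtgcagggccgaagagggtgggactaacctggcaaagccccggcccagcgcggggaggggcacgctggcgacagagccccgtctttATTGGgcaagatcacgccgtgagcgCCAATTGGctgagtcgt
MSMO1: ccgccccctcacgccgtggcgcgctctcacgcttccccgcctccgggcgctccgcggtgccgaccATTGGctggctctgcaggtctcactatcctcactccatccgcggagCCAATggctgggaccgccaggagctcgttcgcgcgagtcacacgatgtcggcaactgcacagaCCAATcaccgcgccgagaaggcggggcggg
LSS: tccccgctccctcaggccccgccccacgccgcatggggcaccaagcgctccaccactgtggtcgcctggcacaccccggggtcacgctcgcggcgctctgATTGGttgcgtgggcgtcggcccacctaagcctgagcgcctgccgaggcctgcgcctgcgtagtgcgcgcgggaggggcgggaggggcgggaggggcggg
STARD4: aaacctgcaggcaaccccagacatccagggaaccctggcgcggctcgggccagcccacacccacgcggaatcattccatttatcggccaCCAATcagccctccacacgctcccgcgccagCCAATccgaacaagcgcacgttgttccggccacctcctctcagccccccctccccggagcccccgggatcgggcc
SREBF2: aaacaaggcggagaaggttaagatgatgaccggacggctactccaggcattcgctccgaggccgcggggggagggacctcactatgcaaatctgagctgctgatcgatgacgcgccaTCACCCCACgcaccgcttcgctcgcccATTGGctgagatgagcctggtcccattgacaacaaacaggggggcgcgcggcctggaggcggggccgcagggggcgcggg
NSDHL showed 4 CCAAT boxes in this stretch, a pair of them overlapping head to head, and 5 in the 250 bases before its RefSeq start. MSMO1 showed 3 here and 4 in 250 bases, STARD4 2 and LSS 1. Among other genes called by genotype with the block, such stretches of GGPS1, ACACA and INSIG2 held no CCAAT box and that of MYLIP held 2. A link between the box and the genotype differences was not tested. NF-Y, Sp1 and SREBP are known to act together on sterol gene promoters.

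Promoter sequences were found for 32 of the 37 genes (47 starts), and for 27305 genes in all (35116 starts). A gene counted as a match if any of its starts matched, so more starts favour a match. Of the genes tested here 10920 had a promoter sequence, and the shares of tested genes below are over these. ACAT2, FDFT1, SQLE, FASN and ABCG1 were not matched. Within 250 bases before a start and on both strands, the CCAAT box lay in 22 of the 32 genes (68.8%), against 37.0% of all 27305 genes in the table and 41.9% of those tested here. The Sp1 box GGGCGG lay in 31 genes (96.9%), against 46.2% of all genes and 73.2% of those tested. The E-box CACGTG lay in 4 genes (12.5%), ABCA1, INSIG1, SC5D and SCAP, against 7.73% of all genes and 11.2% of those tested. The sterol regulatory element TCACNCCAC lay in 1 gene, SREBF2 (3.13%), against 1.09% of all genes and 1.15% of those tested, and the LXR element, a direct repeat of AGGTCA with 4 bases between, lay in none. A match describes the letters in this window and is not a binding site, and the motifs were counted independently of each other where they overlap.

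The abundance of the 37 transcripts, compared per kilobase (kb) of exon, spanned 207-fold in WT cells, with a median of 16.0 CPM per kb. Of the 4 most abundant, 3 were fatty acid genes: SCD, which places the double bond in stearate, at 119 ± 8.66 CPM per kb (SD, n = 3), FASN, the fatty acid synthase, at 89.0 ± 9.29, and ACLY, which makes cytosolic acetyl-CoA, at 75.0 ± 5.46. FDPS, the farnesyl diphosphate synthase, followed at 72.6 ± 9.04 CPM per kb, so ACLY and FDPS did not differ beyond their spread. The lowest were the LXR gene NR1H3, at 1.143 CPM per kb, and the cholesterol exporter ABCG1, at 0.577 CPM per kb. The other LXR gene, NR1H2, stood at 10.1 CPM per kb, SREBF1 at 17.3 and SREBF2 at 11.7 CPM per kb. The plot of level per exon length shows neighbours in this order with overlapping SD bars over most of its length.

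**Figure D1:**
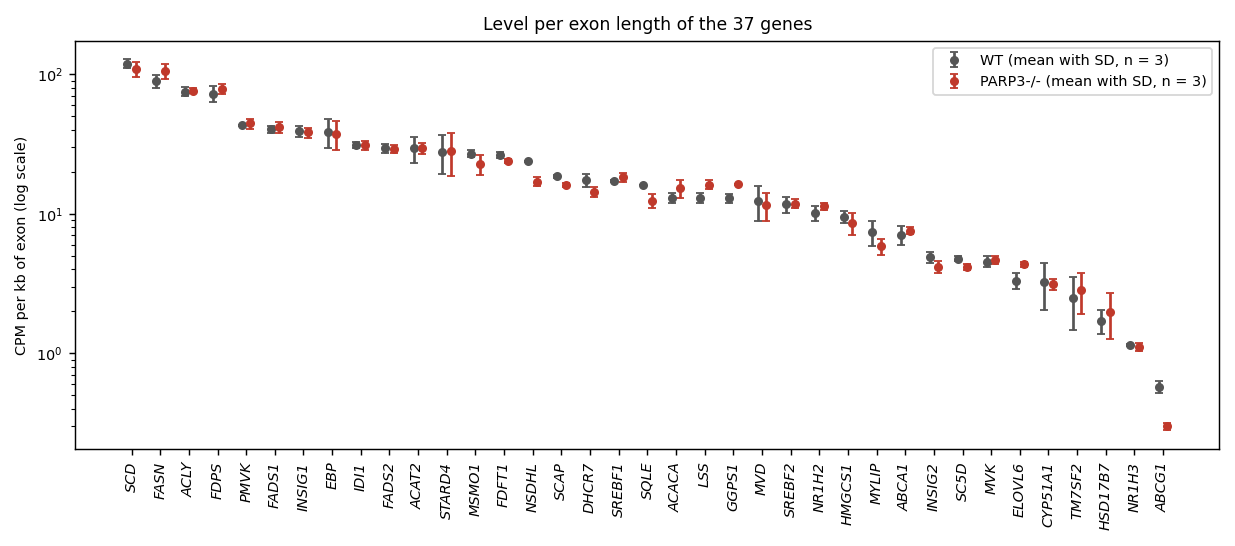
Mean level of each of the 37 genes in CPM per kb of exon (log scale) in WT (grey) and PARP3-/- (red) cells, with SD over 3 libraries, ordered by the WT level. SCD is highest at 119 and ABCG1 lowest at 0.577 CPM per kb in WT, and ABCG1 shows the widest gap between the genotypes.

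The summed level of the pathway overlapped between the genotypes. The 37 genes summed to 5203, 4864 and 5001 CPM in WT replicates 1, 2 and 3 and to 5477, 5161 and 4767 CPM in the PARP3-/- replicates, that is 0.477% to 0.548% of the counts. By role, the fatty acid genes summed to 2762 ± 136 CPM in WT and 2908 ± 245 CPM in PARP3-/- (SD, n = 3), the mevalonate genes to 736 ± 52.1 and 763 ± 29.5, and the genes from squalene to cholesterol to 686 ± 24.8 and 629 ± 41.0. Only in the last did the sums of the genotypes not overlap, at 669 to 715 CPM in WT and 583 to 663 CPM in PARP3-/-. The median log2 fold change of the 37 genes, PARP3-/- over WT, was -0.01, as over all genes tested (-0.01). For 36 of the 37 (97.3%) it was under 0.5 in size, against 87.3% of all genes.

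In edgeR's quasi-likelihood test, with a gene called at a Benjamini-Hochberg adjusted p under 0.05 over all genes tested, 2 of the 37 genes were lower in PARP3-/- cells, NSDHL and ABCG1, against a background of 3.33% of genes called lower. None was called higher, against a background of 1.36%. At an unadjusted p under 0.05 the same test gave 6 lower and 3 higher, against 1548 and 1240 of all 17144 genes. DESeq2 called 3 lower (NSDHL, ABCG1 and SQLE) and 1 higher (GGPS1), against 871 and 475 over all genes. The libraries of both genotypes carry replicate numbers. With the number as a block 9 of the 37 were lower, against 12.5% of all genes, and 5 were higher, against 11.8%. The 9 were NSDHL, SQLE, DHCR7, MSMO1, SC5D, SCAP, INSIG2, MYLIP and ABCG1, and the 5 were GGPS1, LSS, ACACA, FASN and ELOVL6. With the block, 24.3% of the 37 were thus lower and 13.5% higher, in genes whose counts were larger than those of most genes tested. Of these 14 genes 13 differed by less than 0.5 on the log2 scale. With replicates 2 and 3 only, a choice made after seeing the data, 8 of the 37 were lower and 4 higher. Over all genes, 1739 were lower and 1536 higher in that fit. Of the 37, HMGCS1 (lower) and NR1H2 (higher) were among those called, and the other 10 were all among the 14. In 6 genes all 3 PARP3-/- libraries lay below all 3 WT libraries, where 12% of all genes did so, in 3 all lay above, where 10.8% did, and in 28 the genotypes overlapped.

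**Figure D2:**
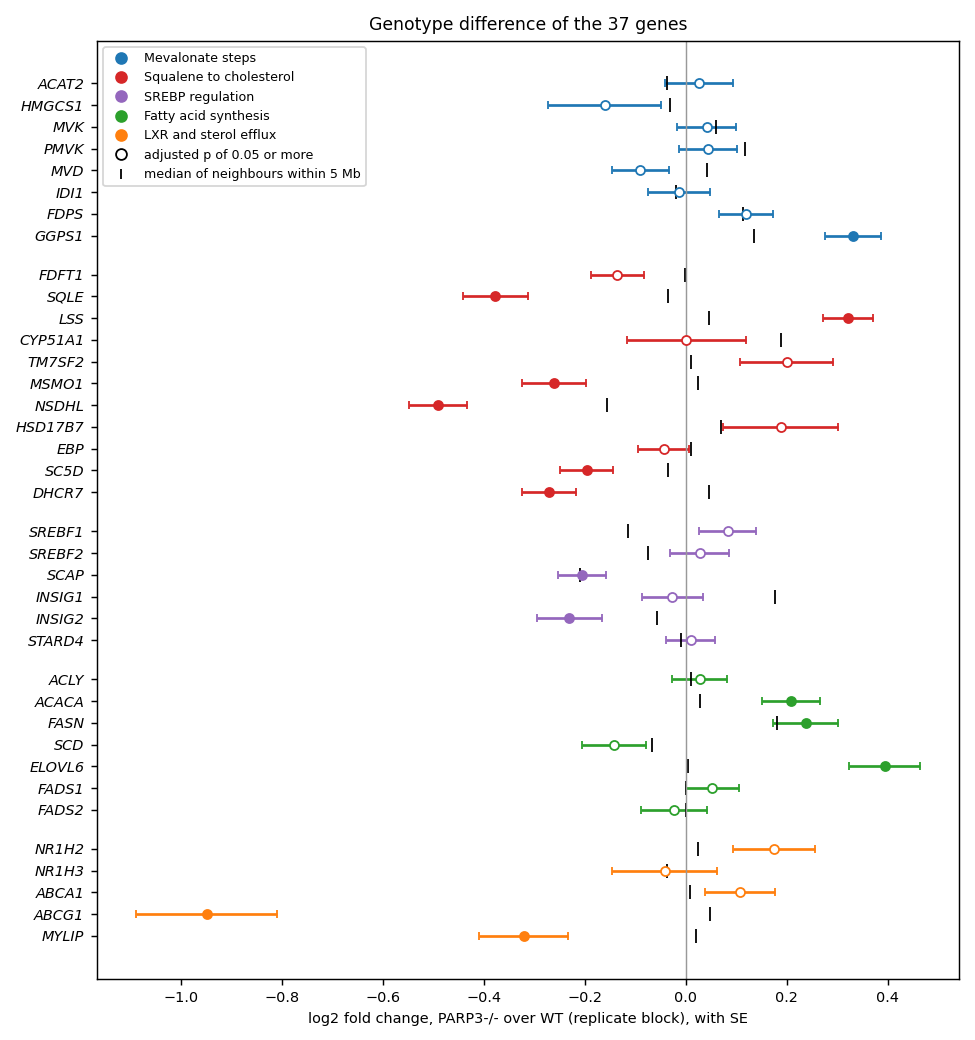
log2 fold change (PARP3-/- over WT, with the replicate number as a block) of the 37 genes, with SE, coloured by role. Filled points have an adjusted p under 0.05, and vertical ticks give the median of the tested genes within 5 Mb of each gene. ABCG1 at -0.95 stands far to the left, and 5 of the 11 genes from squalene to cholesterol are filled on the left.

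The 11 genes from squalene to cholesterol held 5 of the 9 lower genes and 1 of the 5 higher ones. Over all genes the block gave 12.5% lower and 11.8% higher. NSDHL, a dehydrogenase that takes part in removing methyl groups of lanosterol (ENSG00000147383, chrX:152830967-152869729, hg38), counted 47.4, 48.0 and 46.9 CPM in WT and 35.9, 34.5 and 31.0 CPM in PARP3-/-. Its WT libraries lay close together and all of its PARP3-/- libraries were lower. The log2 fold change was -0.49 (SE 0.08, adjusted p = 0.0177 without the block and 0.000132 with it). With 1 library left out and no block, its adjusted p was 0.0278 to 0.0990, past 0.05 without WT replicate 2 or 3 or PARP3-/- replicate 2 or 3. Tested genes within 5 Mb of NSDHL had a median log2 fold change of -0.16. SQLE, the squalene monooxygenase, counted 69.1, 69.3 and 68.8 CPM in WT and 59.4, 54.2 and 46.7 CPM in PARP3-/-. Here too the WT libraries nearly coincided while the PARP3-/- libraries spread below them. Its log2 fold change was -0.37 (SE 0.10), with an adjusted p of 0.100 without the block and 0.00166 with it (edgeR).

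The other lower genes of this group gave smaller differences. MSMO1, the methylsterol monooxygenase that acts with NSDHL, counted 81.8, 73.6 and 75.1 CPM in WT and 75.5, 63.1 and 55.1 CPM in PARP3-/-. The highest PARP3-/- library overlapped the WT range, and the log2 fold change was -0.25 without the block (adjusted p = 0.391) and -0.26 with it (adjusted p = 0.0127, edgeR). SC5D, a desaturase near the end of the pathway, counted 47.8, 49.7 and 46.1 CPM in WT and 43.98, 42.0 and 39.5 CPM in PARP3-/-. Its genotypes did not overlap, and the log2 fold change was -0.20 (adjusted p = 0.262 without and 0.0205 with the block). DHCR7, a reductase of the final step to cholesterol, counted 134, 114 and 110 CPM in WT and 105, 102 and 89.2 CPM in PARP3-/-. All PARP3-/- libraries were lower again, with a log2 fold change of -0.27 (adjusted p = 0.269 without and 0.00408 with the block).

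LSS, the cyclase that closes squalene epoxide into lanosterol (ENSG00000160285, chr21:46188141-46228824, hg38), was the single member of this group called in the other direction. It counted 103, 88.6 and 89.8 CPM in WT and 126, 117 and 108 CPM in PARP3-/-, with no overlap. The log2 fold change was 0.32 (SE 0.10), with an adjusted p of 0.140 without the block and 0.000892 with it (edgeR), and genes within 5 Mb had a median of 0.05. LSS thus stood higher between SQLE, the step before it, and MSMO1, NSDHL, SC5D and DHCR7 after it, which stood lower. FDFT1, CYP51A1, TM7SF2, HSD17B7 and EBP were not called by genotype and had log2 fold changes of -0.14 to 0.22. Over the 11 genes of the group the median was -0.14.

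Of the 8 mevalonate genes GGPS1 was the one called by edgeR with the block, and none was called without it. DESeq2 without the block also called GGPS1 (log2 fold change 0.34, adjusted p = 0.0318), as did edgeR with replicates 2 and 3 only (0.27, adjusted p = 0.00841). GGPS1 makes geranylgeranyl diphosphate, an isoprenoid that leads away from sterols (ENSG00000152904, chr1:235327350-235344532, hg38). It counted 45.1, 49.997 and 52.4 CPM in WT and 61.7, 62.3 and 61.5 CPM in PARP3-/-. The PARP3-/- libraries nearly coincided above all WT libraries, and the log2 fold change was 0.33 (SE 0.08, adjusted p = 0.0723 without and 0.00152 with the block, edgeR), beside a median of 0.14 for genes within 5 Mb. HMGCS1, the synthase that enters the mevalonate route and a classic SREBP2 target, counted 56.5, 64.2 and 68.8 CPM in WT and 67.7, 56.3 and 47.1 CPM in PARP3-/-. Its replicates ran in opposite orders in the genotypes, and the difference of -0.15 (95% interval -0.49 to 0.19) spanned 0. With replicates 2 and 3 only, HMGCS1 was lower in PARP3-/- by a log2 fold change of -0.36 (adjusted p = 0.0116, edgeR). ACAT2, MVK, PMVK, MVD, IDI1 and FDPS had log2 fold changes of -0.10 to 0.12.

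Among the regulators, the transcription factors themselves were not called by genotype. Their 95% intervals, from the fit without the block, reached 0.29 in size and concern RNA levels only. SREBF2, which encodes SREBP2 and drives sterol genes, counted 108, 85.6 and 88.1 CPM in WT and 101, 97.1 and 87.7 CPM in PARP3-/- (log2 fold change 0.02, 95% interval -0.24 to 0.29). SREBF1, which encodes SREBP1 and drives fatty acid genes, counted 142, 140 and 145 CPM in WT and 141, 163 and 148 CPM in PARP3-/- (0.09, 95% interval -0.11 to 0.28). INSIG1, a sensitive SREBP2 target that retains SCAP, counted 128, 148 and 151 CPM in WT and 135, 153 and 132 CPM in PARP3-/- (-0.03, 95% interval -0.26 to 0.21). The libraries of the genotypes overlapped for each of these genes.

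SCAP and INSIG2 were lower with the block. SCAP, the escort of SREBP (ENSG00000114650, chr3:47413694-47477126, hg38), counted 120, 114 and 116 CPM in WT and 104, 102 and 97.9 CPM in PARP3-/-. The genotypes did not overlap, and the log2 fold change was -0.21 (adjusted p = 0.181 without and 0.00975 with the block, edgeR). The 162 tested genes within 5 Mb of SCAP had the same median, -0.21, and PARP3 is 4.50 Mb away on this chromosome. INSIG2, the other retention protein, counted 21.3, 18.6 and 18.1 CPM in WT and 18.3, 15.8 and 15.4 CPM in PARP3-/-. Each PARP3-/- library was below the WT library of its number although the ranges overlapped (-0.23, adjusted p = 0.368 without and 0.0239 with the block). STARD4, a sterol carrier, differed by 0.02 between the genotypes.

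Of the 7 fatty acid genes 3 were higher with the block and none was lower, against 11.8% and 12.5% of all genes. Their median mean count was 15287, against 695 over all genes tested. ELOVL6, which lengthens palmitate, counted 20.7, 24.3 and 27.2 CPM in WT and 30.1, 33.1 and 31.4 CPM in PARP3-/-, without overlap (log2 fold change 0.39, SE 0.11, adjusted p = 0.123 without and 0.00224 with the block, edgeR). FASN counted 918, 745 and 825 CPM in WT and 1109, 947 and 881 CPM in PARP3-/-. ACACA, the carboxylase that supplies malonyl-CoA to FASN, counted 185, 158 and 168 CPM in WT and 230.5, 186 and 176 CPM in PARP3-/-. For both all 3 pairs of equal number ran upward while the ranges overlapped. The log2 fold change of FASN was 0.24 (adjusted p = 0.450 without and 0.0213 with the block), beside a median of 0.18 for genes within 5 Mb, and that of ACACA was 0.22 (adjusted p = 0.479 without and 0.0224 with the block).

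SCD, the desaturase with the highest level of the 37 per kb of exon, counted 676, 589 and 612 CPM in WT and 641, 569 and 497 CPM in PARP3-/- (-0.14, 95% interval -0.42 to 0.15). ACLY, FADS1 and FADS2, FADS1 and FADS2 being desaturases for polyunsaturated fatty acids, had log2 fold changes of -0.02 to 0.05. None of these 4 was called in either fit. With the block, edgeR gave adjusted p values of 0.136 for SCD and 0.529 to 0.838 for the other 3.

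ABCG1, a transporter that passes cholesterol to lipoproteins and a target of LXR (ENSG00000160179, chr21:42199689-42297244, hg38), showed the greatest genotype difference of the 37. It counted 3.51, 3.19 and 3.90 CPM in WT and 1.96, 1.73 and 1.80 CPM in PARP3-/-, from 128, 134 and 160 reads and 59, 77 and 68 reads. Every PARP3-/- library was lower than every WT library, and the log2 fold change was -0.95 (SE 0.15, 95% interval -1.31 to -0.59, adjusted p = 0.0163 without and 0.000640 with the block, edgeR). With 1 library left out and no block, its adjusted p was 0.0326 to 0.0996, past 0.05 without WT replicate 3 or PARP3-/- replicate 2 or 3. Genes within 5 Mb had a median of 0.05. It was also the least abundant of the 37 per kb of exon.

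Of the other LXR targets, MYLIP was called with the block and ABCA1 was not. ABCA1, the exporter that loads cholesterol onto apolipoprotein and is likewise an LXR target, counted 91.6, 81.3 and 67.6 CPM in WT and 90.5, 81.1 and 85.8 CPM in PARP3-/- (log2 fold change 0.10, 95% interval -0.19 to 0.38). MYLIP, the LXR-induced ligase that marks lipoprotein receptors for degradation, counted 25.7, 17.3 and 24.6 CPM in WT and 20.7, 16.5 and 16.5 CPM in PARP3-/-. Its ranges overlapped, and it was called lower only with the block (-0.33, adjusted p = 0.420 without and 0.0233 with it, edgeR). The LXR genes NR1H2 and NR1H3 had log2 fold changes of 0.17 and -0.04, and neither was called in the fits of all 6 libraries. With replicates 2 and 3 only, NR1H2 was higher (0.32, adjusted p = 0.00271).

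**Figure D3:**
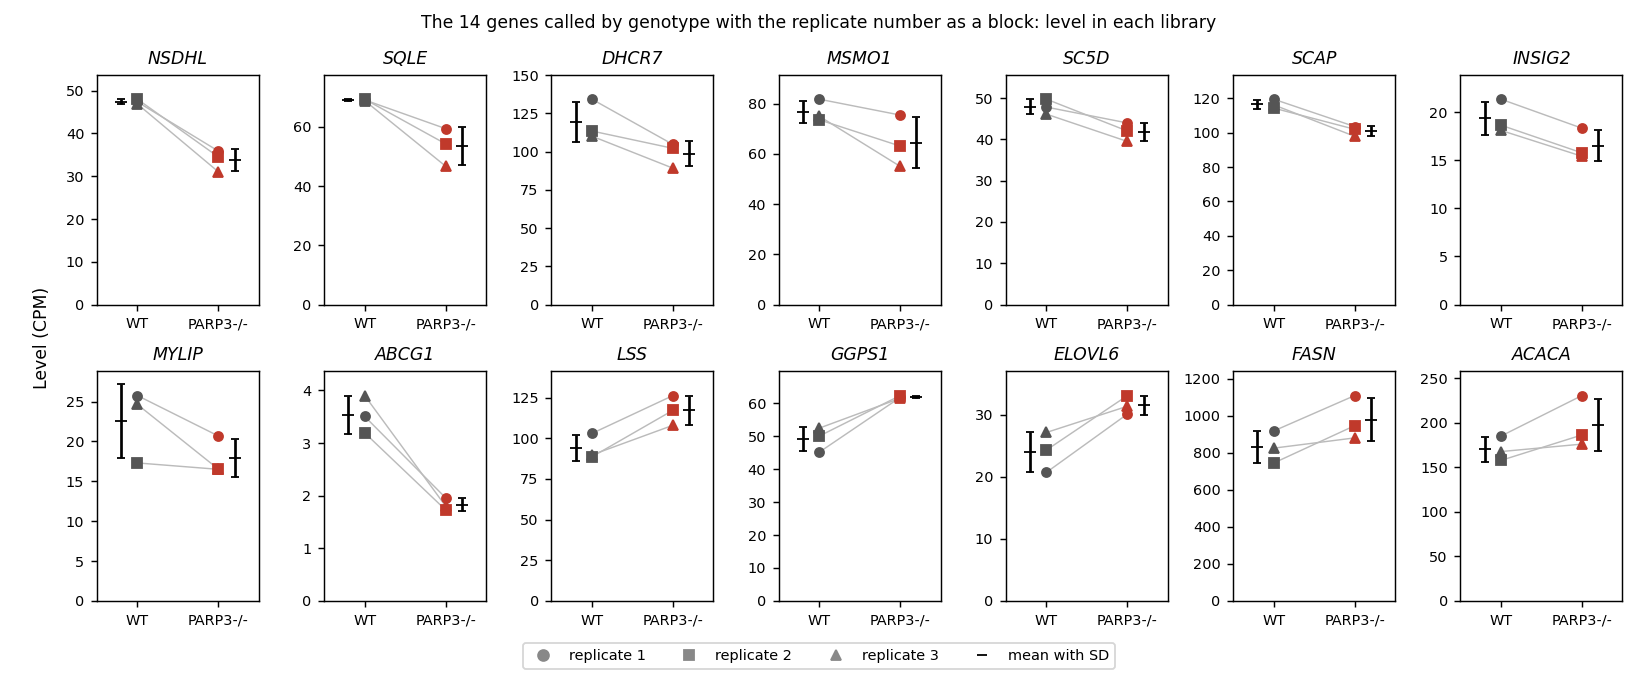
Level in CPM of the 14 genes called by genotype with the replicate block, in each library (symbols by replicate number, lines joining equal numbers), with the mean and SD of each genotype. The 9 genes called lower come first, and NSDHL, SQLE, DHCR7, SC5D, SCAP and ABCG1 show no overlap between WT and PARP3-/- libraries.

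The same genes were then compared by replicate number. In the test of both replicate terms together (edgeR, with genotype in the model), 15 of the 37 genes were called, against a background of 35.3% of all genes. The share, 40.5%, was near that background. The direction was uneven: in 12 of the 15 replicate 1 was higher than replicates 2 and 3 and in 3 it was lower, whereas over all 6044 genes called replicate 1 was higher in 2790 (46.2%) and lower in 3216. Both replicate 1 libraries lay above the other 4 in 10 genes, where 22.4% of all genes did so, and below the other 4 in 5, where 23% did. By role, 7 of the 11 genes from squalene to cholesterol were called, 3 of 8 mevalonate genes, 2 of 6 regulators, 2 of 7 fatty acid genes and 1 of 5 efflux genes. What a replicate number stands for is not given. Replicate 1 had the fewest counts in both genotypes, and the summed neuronal markers SYT1, SNAP25 and RBFOX3 were at 95.8 to 118 CPM in replicate 1 and 55.5 to 62.4 CPM in replicates 2 and 3, mostly from SYT1, with RBFOX3 at 0 or 1 count. Their part in the pattern was not tested.

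STARD4, the carrier that moves cholesterol between membranes and an SREBP2 target (ENSG00000164211, chr5:111496033-111512590, hg38), had the smallest p. It counted 215, 132 and 129 CPM in WT and 223, 132 and 126 CPM in PARP3-/-. Replicate 1 was the highest library of both genotypes and the genotypes nearly coincided at each number, and replicates 2 and 3 differed from replicate 1 by -0.73 and -0.78 on the log2 scale (adjusted p = 1.48e-05, edgeR). MVD, which turns mevalonate pyrophosphate into isopentenyl pyrophosphate, counted 76.9, 47.7 and 50.2 CPM in WT and 68.5, 48.9 and 45.6 CPM in PARP3-/- (adjusted p = 0.000112). TM7SF2, a sterol reductase, counted 12.4, 5.77 and 7.32 CPM in WT and 13.2, 7.57 and 8.05 CPM in PARP3-/- (adjusted p = 0.000212). Both had replicate 1 above the other 4 libraries. HSD17B7, a ketosteroid reductase of the pathway, counted 9.80, 6.74 and 7.88 CPM in WT and 13.4, 7.95 and 7.07 CPM in PARP3-/- (adjusted p = 0.00519). CYP51A1, the lanosterol demethylase, counted 19.2, 10.2 and 11.1 CPM in WT and 14.4, 12.3 and 12.4 CPM in PARP3-/- (adjusted p = 0.0146).

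The 3 genes with replicate 1 lowest were EBP, ACAT2 and FDPS. EBP, the isomerase that shifts a double bond of the sterol ring (ENSG00000147155, chrX:48521158-48528716, hg38), counted 52.5, 84.2 and 67.6 CPM in WT and 49.2, 79.8 and 69.5 CPM in PARP3-/-. The order of its replicates was the same in both genotypes, with replicates 2 and 3 higher than replicate 1 by 0.69 and 0.43 on the log2 scale (adjusted p = 7.52e-05, edgeR). ACAT2, the thiolase that joins acetyl-CoA units, counted 59.6, 91.2 and 81.7 CPM in WT and 70.9, 85.6 and 77.8 CPM in PARP3-/- (adjusted p = 0.00495). FDPS counted 231, 293 and 286 CPM in WT and 266, 317 and 295 CPM in PARP3-/- (adjusted p = 0.0110). These ran opposite to STARD4 and MVD. The other 7 genes called by replicate number were ACACA, DHCR7, FASN, LSS, MSMO1, MYLIP and SREBF2, all with replicate 1 highest on average and adjusted p values of 0.0153 to 0.0414. Of all 15 genes called by replicate number, 6 (these 7 without SREBF2) were also called by genotype with the block. Over all genes, 1790 of the 6044 called by replicate number were.

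**Figure D4:**
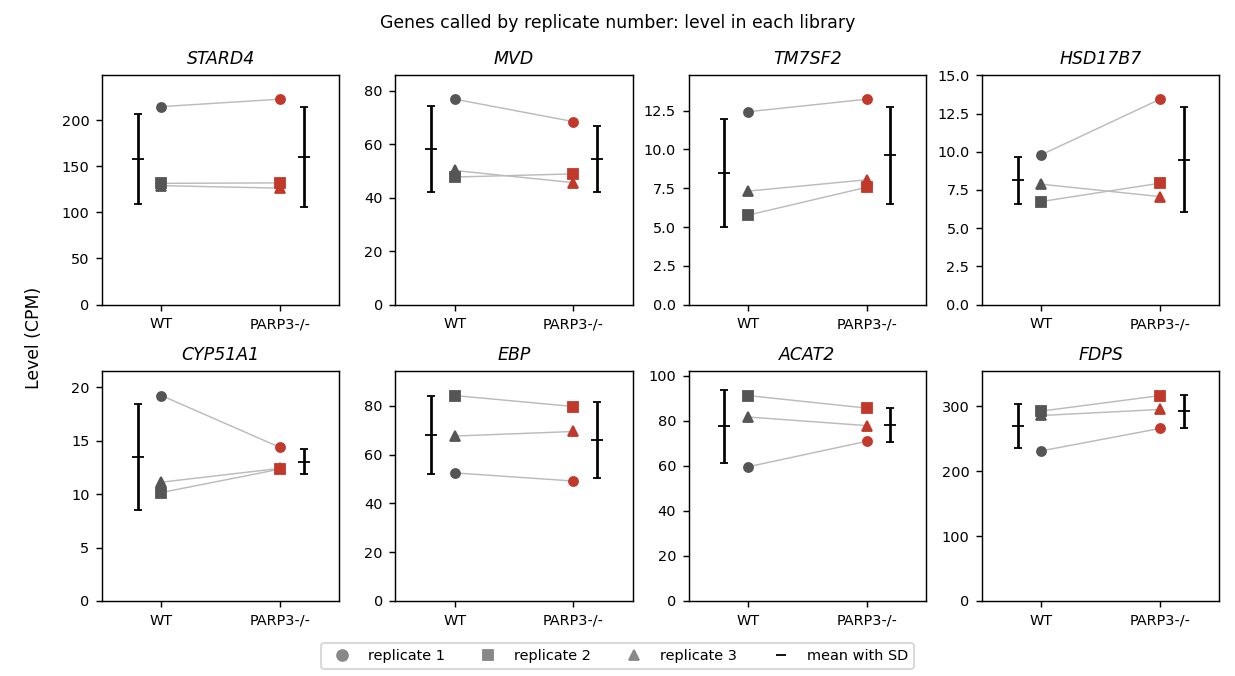
Level in CPM of 8 genes called by replicate number, in each library (symbols by replicate number, lines joining equal numbers), with the mean and SD of each genotype. In STARD4, MVD, TM7SF2, HSD17B7 and CYP51A1 the circles of replicate 1 lie highest, and in EBP, ACAT2 and FDPS they lie lowest, in both genotypes.

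**Figure D5:**
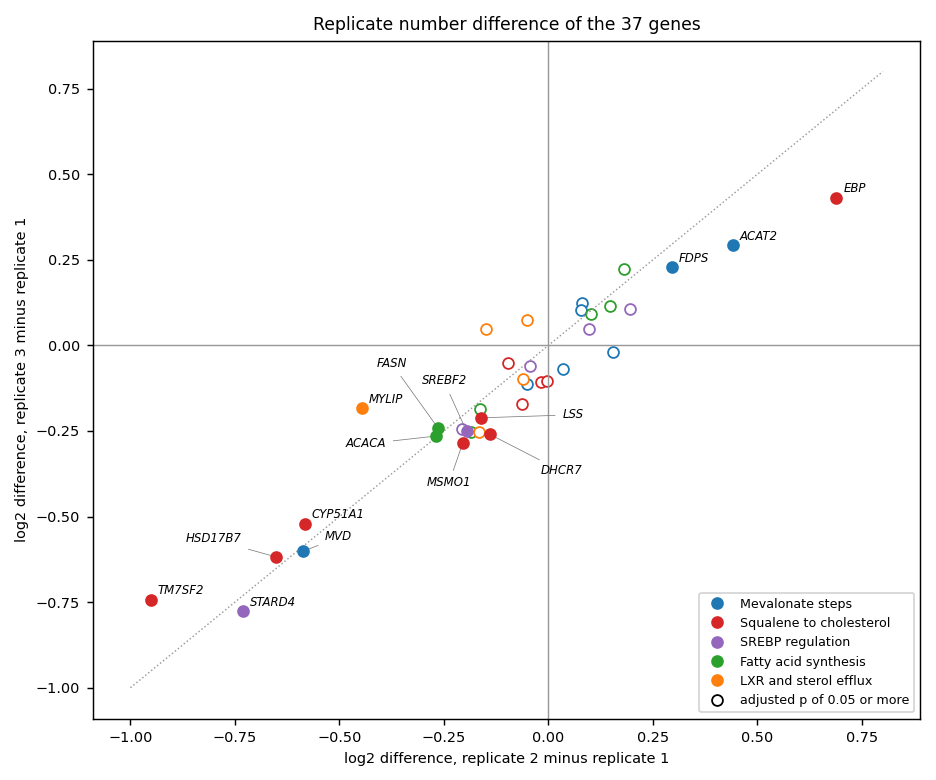
log2 difference of replicate 2 (x) and of replicate 3 (y) from replicate 1, over both genotypes, for the 37 genes coloured by role. Filled points have an adjusted p under 0.05 for the replicate number; 12 of the 15 lie at the lower left, with replicate 1 higher, and 3 at the upper right. Points share replicate 1, so that x and y are not independent.

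Of 77 other genes of the same pathways, 67 were tested. Without the block 5 were lower and none was higher, beside 3.33% lower and 1.36% higher over all genes. At an unadjusted p under 0.05 edgeR gave 8 and 3, beside 1548 and 1240 of all 17144 genes. DESeq2 called 5 and 0, beside 871 and 475 over all genes. With the block 11 were lower (16.4%) and 9 higher (13.4%), beside 12.5% and 11.8%. By replicate number 34 of the 67 were called (50.7%), beside 35.3%. ME1, the malic enzyme that yields NADPH for fatty acid synthesis, stood at 40.01 CPM in WT and 29.0 CPM in PARP3-/- (log2 fold change -0.46, adjusted p = 0.0130, edgeR). SCD5, a desaturase related to SCD, stood at 14.6 and 8.54 CPM (-0.77, adjusted p = 0.0163), ABCA3, a lipid transporter, at 1.66 and 0.479 CPM (-1.76, adjusted p = 0.0179), and CYP7B1, which hydroxylates oxysterols, at 13.7 and 8.47 CPM (-0.70, adjusted p = 0.0255). The values of ABCA3 rest on few reads, 74, 63 and 60 in WT and 11, 30 and 15 in PARP3-/-. With the block, the elongase ELOVL2 (-0.39), which is the fifth gene called without it, the LXR partners RXRG (-0.99) and RXRB (-0.22) and the transporter ABCA5 (-0.30) were lower. The carboxylase ACACB (0.32), the sterol acyltransferase SOAT1 (0.23) and the elongation dehydratases HACD3 (0.23) and HACD1 (0.30) were higher. The 13 genes of SREBP processing, such as MBTPS1 and MBTPS2, held 1 lower and 1 higher gene with the block and a median log2 fold change of 0.04.

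Some of the counts are less certain than their depth. FDPS, IDI1, ACAT2 and NR1H2 overlap exons of a gene on the opposite strand, over 18.6% of exon bases in FDPS, 14.97% in IDI1, 17.2% in ACAT2 and 22.1% in NR1H2. Smaller overlaps lay in other genes, among them SREBF2 (9.08%), SREBF1 (6.75%), LSS (6.19%), CYP51A1 (5.90%) and GGPS1 (3.62%). Of these, LSS and GGPS1 were called by genotype with the block. Whether strand was used in counting is not stated. Processed copies in the table took few reads: 78 for 6 copies of FDPS beside 65723 for the gene, 170 for 3 copies of CYP51A1 beside 3036, 125 for 2 copies of HSD17B7 beside 1990, and 52 for 1 copy of SCD beside 137923. The effect on the differences was not tested.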

How the data were processed

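RNA from 3 WT and 3 PARP3-/- LN229 libraries was analysed. Per the study's methods the libraries were from total RNA depleted of ribosomal RNA, although the labels name polyA RNA, and were read as single ends. The authors trimmed with cutadapt 1.10, removed ribosomal reads with Bowtie2 2.2.8, aligned to hg38 with STAR 2.5.3a and deposited raw counts per Ensembl gene from HTSeq 0.6.1p1 in union mode. The deposited table also holds 12 further columns of per-sample values and 3 of the authors' own comparison (log2 fold change, p and adjusted p), none of which was used.

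Counts were tested in R 4.3.3 with edgeR 4.0.16 (quasi-likelihood F-test, TMM, filterByExpr with a minimum count of 10) on all genes together, and p-values were adjusted over all 17144 tested. The SE is the log2 fold change divided by the root of F. Same-numbered libraries deviated together from their genotype means (r = 0.788, 0.680 and 0.383 across genes for replicates 1, 2 and 3). WT replicate 2 also correlated with PARP3-/- replicate 3 (r = 0.575), and WT replicate 3 with PARP3-/- replicate 2 (r = 0.367). Pairing by number was thus clear for replicate 1 and less so for replicates 2 and 3. A fit with the number as a block is given where it changed a call. No 2 libraries were duplicates. The test was checked on simulated counts. Levels per kb used exon lengths of GENCODE. Alternatives were DESeq2 1.42.0, other size factors, filters and thresholds, and each library left out. Members and lists were chosen with earlier results of these data known. Values of every library are given for genes called in either genotype fit and for HMGCS1, SQLE, INSIG1, SREBF1, SREBF2, FASN, SCD and ABCA1, with those of 8 genes called by replicate number chosen after their values were seen. Of the other pathway genes, at most 4 per direction and fit are named, by smallest p.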

Additional observations from a re-analysis of the deposited data

How the results depend on the processing

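Without the block, 571 genes were lower and 234 higher over all genes. These counts were 871 and 475 by DESeq2, 76 and 6 at an adjusted p under 0.001 with a log2 fold change beyond 1, 2143 and 2023 with the replicate block, and 1739 and 1536 with replicates 2 and 3 only, an alternative chosen after seeing the data. With a mean count of at least 50, 331 were lower. Leaving out 1 library gave 281 to 606 lower and 49 to 259 higher. For the 37 genes (2 lower and 0 higher), DESeq2 gave 1 higher, the stricter threshold 0 lower, the replicate block 9 lower and 5 higher, replicates 2 and 3 only 8 lower and 4 higher, and leaving out 1 library 0 to 2 lower. NSDHL and ABCG1 both lost their call without WT replicate 3, PARP3-/- replicate 2 or PARP3-/- replicate 3, and NSDHL also without WT replicate 2. For the other pathway genes (5 and 0), the stricter threshold gave 0 lower, the block 11 and 9, replicates 2 and 3 only 9 and 6, and leaving out 1 library 0 to 4 lower.

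With the block, other size factors called the same 14 of the 37 genes and DESeq2 11 of them, without SC5D, INSIG2 and MYLIP. Leaving out 1 library with the block (chosen after seeing the data) gave 4 to 12 lower, lowest without replicate 3 of either genotype, and 3 to 7 higher, lowest without replicate 2 of either genotype. NSDHL, SQLE, DHCR7, ABCG1, GGPS1, LSS and ELOVL6 were called in each of these. In this fit a library left alone in its number carries no information on genotype. Leaving out either library of a number thus amounts to leaving out the pair, and these fits are not separate checks of each library. By replicate number, 6044 genes became 1755 and 15 of the 37 became 4 (EBP, MVD, STARD4 and TM7SF2) at an adjusted p under 0.001, and leaving out 1 library gave 4352 to 6527 and 9 to 19, the 9 without WT replicate 2. Of 444 values of single genes under other settings, 413 stayed on the same side of the threshold, 24 passed it, 7 no longer did, and 37 in 17 genes changed sign, none of them called. The causes were not tested. With 3 libraries a group and low counts, ABCG1 had the largest SE (0.14, with the block) of the 14 of the 37 genes called in that fit.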
